A study of Danio rerio with 75 samples.

Results

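The genes of splicing factors were followed through the adult life of the zebrafish. A row of the deposited count table was taken as a member where its gene symbol, ignoring case, started with srsf, hnrnp, hnrp, snrp or sf3, which gave 61 of 32677 rows. These were 14 genes of SR proteins, 25 genes of heterogeneous nuclear ribonucleoproteins (hnRNPs), 12 genes of protein subunits of small nuclear ribonucleoproteins (snRNPs) and 10 genes of the SF3 complexes. All 61 passed the filter on low counts in brain, in liver and in skin.

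Single-end RNA sequencing had been done on brain, liver and skin of male fish, whose strain is AB JxTu in the labels and TüAB in the study's methods, at 6, 12, 24, 36 and 42 months of age, with 5 libraries for each tissue and age except liver at 6 and at 12 months, which had 4 each. Library totals were 29006611 to 44324353 counts in the 25 brain libraries, 31306947 to 58166358 in the 23 liver libraries and 32925263 to 48935972 in the 25 skin libraries. Age went together with the line of fish. No transgene was listed at 6 and 24 months, whereas the fish of 12 months carried Tg(flk:mCherry), those of 36 months Tg(pu.1:GFP) and those of 42 months Tg(wt1a:GFP). Only the comparison of 24 with 6 months was therefore free of a change of listed transgene, and in the others line and age cannot be told apart. The labels do not say whether the fish of 6 and 24 months came from the same stock. In brain the youngest libraries pooled 2 fish each and the older ones did not, so that pooling and age cannot be told apart there. The 73 libraries came from 40 fish or pools, 23 of which gave more than 1 tissue. The labelled tissues carried their markers: the 10 brain markers summed to 11410 to 22700 CPM, that is, counts scaled to the library total and the TMM factor, in brain and to at most 526.9 CPM in liver and 299.2 CPM in skin. Of the 23 liver libraries, 10 held over 2000 CPM of intestine markers (2 at 6 months, 4 at 12, 1 at 24, 2 at 36 and 1 at 42 months), and in skin the skeletal muscle markers ranged from 2779 to 70250 CPM. P-values measure the spread between these libraries, and in whole tissue, fewer cells of a type and less RNA per cell cannot be told apart.

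Splicing is carried out by the spliceosome, which assembles on each intron from snRNPs, that is, small nuclear RNAs bound by a ring of Sm proteins and by proteins particular to each snRNP. The SF3A and SF3B complexes belong to the U2 snRNP and hold it at the branch point, while SR proteins and hnRNPs bind exons and introns and favour or disfavour the use of nearby splice sites. Many SR protein and hnRNP genes limit their own output in vertebrates by splicing a poison exon into their transcripts, and reads counted per gene do not separate such transcripts from productive ones.

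Among members, levels can be compared only per length, for which the RPKM values (reads scaled to exon length and library size) were used. In brain, hnrnpab led with a median of 216 RPKM (lowest 171, highest 243, n = 25), followed by sf3b1, the branch point-binding subunit of SF3B, at 208 RPKM and by the SR protein gene srsf5a at 206 RPKM. In liver and in skin, hnrnpa0l was first, with medians of 139 and 274 RPKM, which are uncertain if this gene overlaps hnrnpa0b. Both hnrnpab and srsf5a were among the 4 highest members in each tissue. At the lower end, HNRNPUL2, a relative of the nuclear scaffold protein hnRNP U, had medians of 2.12, 0.777 and 1.64 RPKM in brain, liver and skin.

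Some paralogues were far apart in level and others alike. Of the 2 genes of Srsf2, which in mammals marks the nuclear speckles, srsf2a had a median of 95.1 RPKM in brain, 33.3 in liver and 52.2 in skin, whereas srsf2b had 7.17, 1.53 and 5.53 RPKM. In every tissue srsf2b lay far below its paralogue and among the lowest members, at rank 60, 58 and 57 of 61. The gene of hnRNP L, a protein that binds CA-rich RNA, is listed as hnrpl and stood in the middle of the members, at rank 23, 24 and 24, with medians of 50.1 RPKM in brain (39.4 to 64.6), 17.3 in liver (5.29 to 39.8) and 32.9 in skin (19.1 to 49.9). Its paralogue hnrnpl2 lay close to it, with medians of 49.97, 17.4 and 28.01 RPKM.

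**Figure D1:**
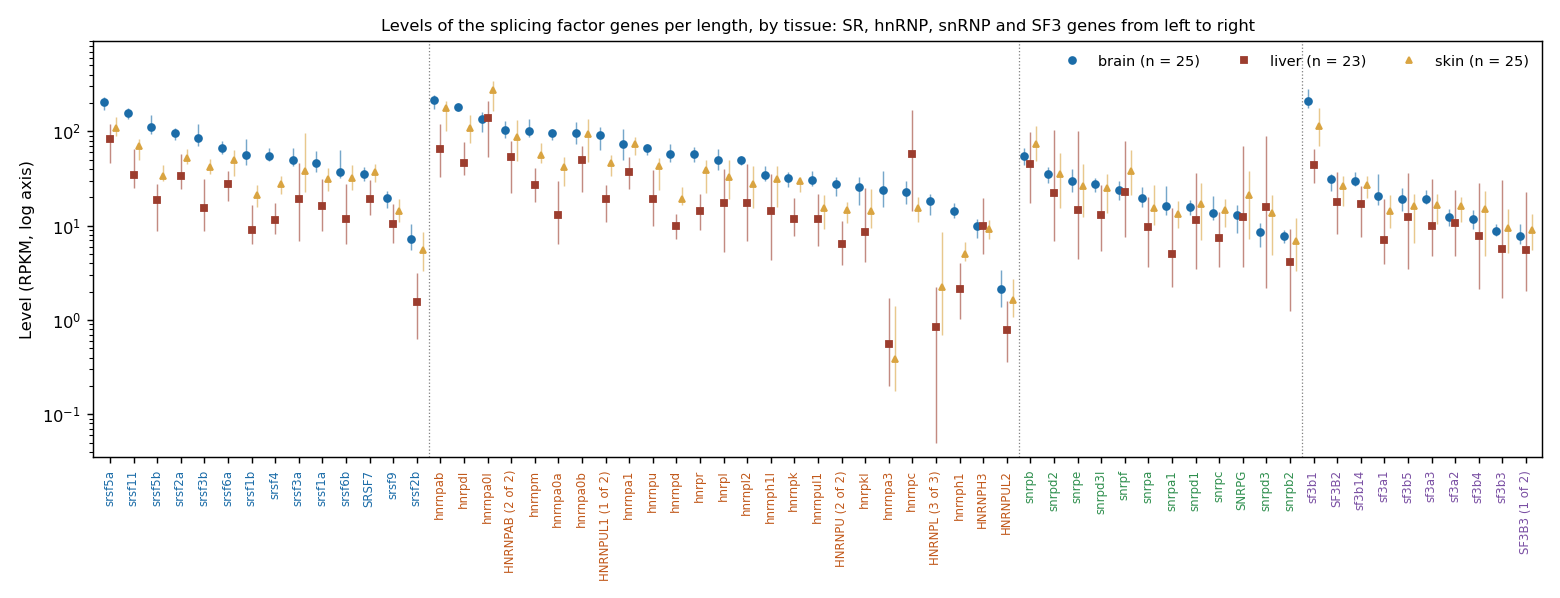
Median RPKM of each of the 61 members in brain, liver and skin on a log axis, with a line from the lowest to the highest library and members grouped by role. The median of hnrnpa3 is 23.9 RPKM in brain against 0.558 in liver and 0.387 in skin. The lowest liver library of HNRNPL (3 of 3) is at 0 RPKM, and its line is drawn down to 0.05 RPKM only.

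Between tissues, most genes differed. Of all 25360 genes tested in the joint model, 83.4% were called between brain and skin, 85.1% between brain and liver and 73.5% between liver and skin at an adjusted p under 0.05 (edgeR's quasi-likelihood test with Benjamini-Hochberg adjustment). Of the 61 members, 23 were higher and 26 lower in brain than in skin, where the background was 41.0% higher and 42.4% lower. Against liver, 20 were higher and 30 lower in brain, where the background was 42.0% and 43.1%. Between liver and skin, 29 were higher and 13 lower in liver, with 36.9% and 36.6% of all genes. Both directions summed, 49, 50 and 42 of 61 members were called, shares close to or below those of all genes. By direction, the members lower in brain than in liver and those higher in liver than in skin were somewhat above their background. Both of these directions turned round when libraries were scaled by their totals alone.

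With TMM factors the snRNP genes were lower in brain and the hnRNP genes leaned the other way. None of the 12 snRNP genes was higher in brain, 10 were lower than in skin and 11 lower than in liver, with median log2 differences of -0.46 and -0.82, while the median of all genes was -0.04 and -0.03. Of the 10 SF3 genes, 7 were lower in brain than in skin and 8 lower than in liver. Only sf3b1 among them was higher in brain in these 2 comparisons, by 0.44 and 0.83 on the log2 scale. Of the 25 hnRNP genes, 14 were higher and 8 lower in brain than in skin, and of the 14 SR genes 8 were higher and 1 lower.

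These directions are relative to the scaling, also by role. In the RPKM values, which use library size alone, most snRNP and SF3 genes had a higher median in brain than in liver, snrpd3 being an exception. The TMM factors, which set most genes to no change, had a median of 1.55 in brain, 0.588 in liver and 1.13 in skin. Scaled by library totals alone, 55 members were higher and 3 lower in brain than in liver, with a median of 1.32 for the members and 1.40 for all genes. The corresponding split was 42 to 7 between brain and skin (all-gene median 0.42) and 4 to 56 between liver and skin (all-gene median -0.98). The members' medians in these 2 comparisons, 0.38 and -0.90, likewise lay close to those of all genes.

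A few members were close to specific for a tissue. The gene of hnRNP A3, hnrnpa3, had a median of 23.9 RPKM in brain (15.6 to 38), 0.558 in liver (0.199 to 1.7) and 0.387 in skin (0.177 to 1.41), so that no library of the other tissues came near the lowest brain library. It was higher in brain than in skin by 5.36 on the log2 scale (SE 0.18, adjusted p = 4.5e-36) and than in liver by 3.96 (SE 0.177, adjusted p = 6.9e-30). A copy of the hnRNP L gene, HNRNPL (3 of 3), had 18.2 (12.88 to 21.9), 0.843 (0 to 2.212) and 2.24 RPKM (0.6903 to 8.607). It was higher in brain by 2.52 against skin and 2.84 against liver, but its highest skin library came nearer to brain than any of hnrnpa3. The differences of hnrnpa3 and HNRNPL (3 of 3) were the highest among the members in both comparisons, and both genes kept their direction with library totals alone.

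Further members that were higher in brain than in skin were srsf5b (log2 difference 1.27), hnrnpd (1.14) and srsf1b (1.00), the last being a gene of the first SR protein described in mammals. The gene hnrnpa0l was lower in brain than in skin (-1.45), and the Sm ring genes snrpd3, snrpf and SNRPG had differences of -1.10, -1.09 and -1.01. Against liver, snrpd3 had -2.87 and SNRPG -1.66, the latter not called when libraries were scaled by their totals alone. The gene hnrnpc, whose product in human cells binds uridine tracts, was highest in liver, at a median of 58.1 RPKM against 22.6 in brain and 15.6 in skin, with log2 differences of -3.16 for brain against liver and 3.26 for liver against skin. Its liver libraries were widely spread, from 14.4 to 167 RPKM, and at 6 months alone they gave 44.1, 21.8, 319 and 337 CPM.

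With age, srsf2b was lower in the old fish of all 3 tissues, old meaning the ages of 36 and 42 months as 1 group and young 6 months. In skin the libraries of 6 months had 20.8, 22.2, 30.4, 26.9 and 31.5 CPM, those of 36 months 13.4, 12.9, 16.2, 21.1 and 19.3 CPM, and those of 42 months 15.1, 15.3, 13.1, 20.0 and 18.7 CPM. All but 1 old library lay below the lowest young library. The mean was 26.4 ± 4.80 CPM in young skin (SD, n = 5) and 16.5 ± 3.05 CPM in old skin (SD, n = 10), a log2 fold change of -0.67 (SE 0.128, adjusted p = 0.00158).

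In brain, srsf2b had 37.0, 26.0, 32.4, 30.8 and 27.4 CPM at 6 months, 21.6, 23.2, 23.5, 24.5 and 26.0 CPM at 36 months, and 23.0, 24.6, 21.6, 21.4 and 21.3 CPM at 42 months. Again a single old library reached into the range of the young ones. The means were 30.7 ± 4.34 CPM (SD, n = 5) and 23.1 ± 1.60 CPM (SD, n = 10), a log2 fold change of -0.41 (SE 0.0848, adjusted p = 0.00182).

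In liver, where srsf2b was lowest, the libraries of 6 months had 6.68, 7.95, 12.8 and 10.3 CPM, those of 36 months 3.58, 3.12, 3.25, 4.15 and 4.37 CPM and those of 42 months 4.51, 4.86, 5.16, 5.98 and 5.06 CPM. The old and young libraries did not overlap. The log2 fold change was -1.12 (SE 0.194, adjusted p = 0.0255), with means of 9.44 ± 2.72 CPM (SD, n = 4) in young and 4.40 ± 0.910 CPM (SD, n = 10) in old liver. Here the call was lost in 6 of 34 alternative settings, while it held in all 35 in brain and in all 36 in skin.

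The ages between did not give 1 shared course. At 12 months srsf2b had 28.2 ± 3.26 CPM in brain, 5.74 ± 1.298 in liver and 19.6 ± 1.095 in skin, and at 24 months 24.98 ± 3.38, 7.63 ± 1.99 and 21.5 ± 3.29 CPM (SD, n = 5, and n = 4 for liver at 12 months). Brain descended through the ages, whereas liver and skin were lower at 12 than at 24 months, with all 4 liver libraries of 12 months and 1 of 5 at 24 months being rich in intestine markers. Against 6 months, the difference at 24 months, free of a change of listed transgene, passed the test in brain (log2 fold change -0.30, adjusted p = 0.0473) and not in liver (-0.31, adjusted p = 0.44) or skin (-0.30, adjusted p = 0.17). In brain the libraries of 6 months were pools and those of 24 months were not. For the paralogue srsf2a the log2 fold change in old fish was 0.17 in brain (253 ± 16.9 to 285 ± 19.8 CPM, adjusted p = 0.0381), -0.41 in liver (adjusted p = 0.44) and -0.07 in skin (adjusted p = 0.51).

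**Figure D2:**
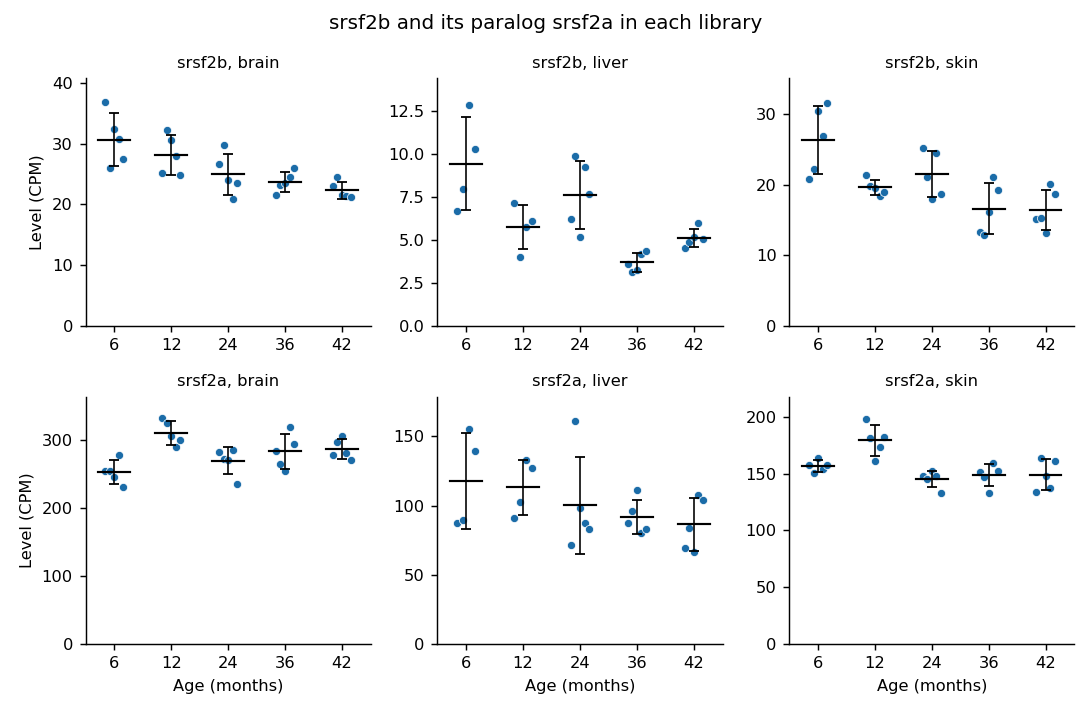
TMM-normalised CPM of srsf2b and of its paralogue srsf2a in every library against age in months, by tissue, with the mean and SD of each group. In all 3 tissues the points of srsf2b at 36 and 42 months lie at or below the lowest points of 6 months, with 1 overlapping library each in brain and in skin, while the mean of srsf2a in brain is higher in old than in young fish.

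In old brain, SR protein genes were mostly higher than in young brain. Of the 61 members 12 were higher and 6 lower, against a background of 19.6% of all 23028 genes tested (8.97% higher, 10.6% lower). The SR genes gave 8 of the 12, with 1 lower (srsf2b) and a median log2 fold change of 0.18, where the median of all genes was -0.01. The hnRNP genes gave 4 higher and 3 lower (median 0.02), and snRNP and SF3 genes 1 lower each. For 4 of 61 members, old and young libraries did not overlap, against 3.59% of all genes.

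The largest fall was in snrpa1, the gene of the U2 snRNP protein A′. The libraries of 6 months had 47.7, 38.3, 36.5, 44.6 and 35.8 CPM, those of 36 months 26.6, 26.5, 25.8, 32.3 and 27.2 CPM, and those of 42 months 23.6, 24.2, 27.4, 25.2 and 23.6 CPM. No old library reached the lowest young one. The log2 fold change was -0.63 (SE 0.0742, adjusted p = 7.5e-06), but 12 months (28.7 ± 2.41 CPM) was as low as the old ages and 24 months (36.7 ± 3.50 CPM, SD, n = 5) was not.

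Among hnRNP genes, HNRNPH3, of a family that binds runs of guanine, had 13.1, 13.9, 13.1, 13.6 and 13.3 CPM at 6 months and lay above this at every later age. The 10 old libraries had from 14.1 to 19.6 CPM, with no overlap, and the log2 fold change was 0.38 (SE 0.0604, adjusted p = 2.0e-04). The libraries of 6 months, which were pools, had an SD of 0.370 CPM and the old ones of 1.66 CPM. HNRNPAB (2 of 2) was lower without overlap (198 ± 7.38 to 161 ± 16.5 CPM, log2 fold change -0.30, adjusted p = 0.00345), and so was the SF3B gene sf3b4 (16.8 ± 0.702 to 14.3 ± 1.28 CPM, -0.23, adjusted p = 0.0262). The gene hnrnpab, a relative of HNRNPAB (2 of 2), also fell, by 0.18 on the log2 scale (adjusted p = 0.0213). The calls of sf3b4 and of hnrnpab were lost in 13 and 22 of 35 alternative settings.

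The genes that rose most in old brain were those in which the 2 old ages differed. Means over all old libraries were higher for srsf6b (118.6 ± 5.19 to 157 ± 36.5 CPM, log2 fold change 0.38, adjusted p = 0.00448), srsf1a (0.31, adjusted p = 0.00166), srsf1b (0.30, adjusted p = 0.00165) and hnrnpa3 (0.30, adjusted p = 0.00279). Taken apart, 36 months gave 17 higher and 8 lower members against 6 months, with a background of 28.7% (13.6% higher, 15.1% lower). Against 6 months, 42 months gave 2 higher and 5 lower, with a background of 8.67% (4.47% higher, 4.2% lower). These comparisons share the young libraries. The 2 that were higher at 42 months were HNRNPH3 and sf3b1, so that none of the SR genes that rose at 36 months was called at 42 months. At 12 months, in fish of another line, all libraries of srsf6b, srsf1a and srsf1b also lay above those of 6 months. They had 127.8 to 184.2, 144.3 to 154.2 and 186.8 to 219.6 CPM against 112.4 to 125.7, 101.8 to 126.8 and 152.5 to 178.6 CPM. Levels above 6 months were thus not particular to old brain for these genes.

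The direct comparison of 42 with 36 months, made after the data had been seen, gave 5 higher and 23 lower members against a background of 22.8% (12.0% higher, 10.8% lower). The members' median was -0.16 and that of all genes 0.01. By role, 6 SR genes were lower and none higher, 11 hnRNP genes lower and 4 higher, 3 snRNP genes lower and none higher, and 3 SF3 genes lower and 1 higher. For 20 members the libraries of the 2 ages did not overlap (17 lower and 3 higher at 42 months), against 14.4% of all genes. The count of calls stayed between 25 and 30 in all 33 alternative settings.

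The gene with the smallest p over the 5 ages in brain was hnrnpa3. Its brain libraries had 57.1, 55.1, 58.3, 57.5 and 60.0 CPM at 36 months and 36.2, 36.9, 38.9, 40.9 and 36.5 CPM at 42 months, and at 6 months 35.8, 36.0, 41.3, 38.9 and 37.5 CPM. The fish of 42 months were thus back within the range of the youngest ones, and apart from those of 36 months. The log2 difference of 42 against 36 months was -0.61 (SE 0.075, adjusted p = 8.5e-06). At 12 and 24 months the means were 48.9 ± 4.096 and 29.9 ± 3.74 CPM, so that the level alternated from age to age.

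Likewise, srsf1b had 240, 250, 244, 264 and 206 CPM at 36 months and 168, 159, 177, 162 and 179 CPM at 42 months, close to the 164 ± 9.39 CPM of 6 months (SD, n = 5). The groups of 36 and 42 months did not overlap, and the log2 difference was -0.51 (SE 0.0691, adjusted p = 2.4e-05). The same order of means, high at 36 and near 6 months at 42 months, held for srsf6b (118.6, 186 and 127 CPM at 6, 36 and 42 months), hnrnpa1 (136.7, 186 and 127 CPM) and snrpa, the gene of the U1 snRNP protein A (31.5, 39.3 and 29.4 CPM), each lower at 42 than at 36 months with an adjusted p of at most 5.0e-04. For hnrpl the means were 127, 140 and 106.6 CPM, the last also below 6 months (log2 fold change -0.25, adjusted p = 0.0188). Over both old ages hnrpl had 123 ± 20.1 CPM against 127 ± 5.38 CPM in young brain (-0.05, adjusted p = 0.53), with its mean above that of 6 months at 36 and below it at 42 months.

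A smaller set went the other way. The libraries of sf3b1 had 1005, 990, 986, 989 and 858 CPM at 36 months and 1240, 1061, 1264, 1251 and 1362 CPM at 42 months, without overlap, a log2 difference of 0.36 (SE 0.0727, adjusted p = 0.00139). HNRNPU (2 of 2) had means of 131, 105 and 131.7 CPM at 6, 36 and 42 months (log2 difference of 42 to 36 months 0.33, adjusted p = 0.00107), and hnrnpa0a had 245, 203 and 247 CPM (0.28, adjusted p = 7.3e-04). The genes hnrnpu (0.19) and hnrnpab (0.17) were the other two.

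**Figure D3:**
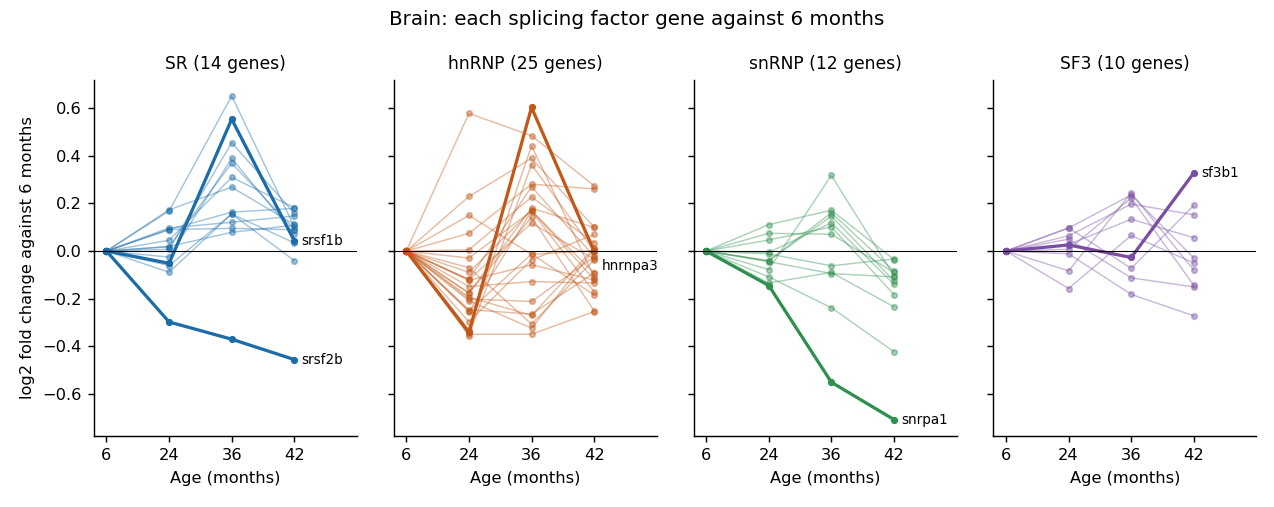
Log2 fold change against 6 months at 24, 36 and 42 months in brain for each member, in 4 panels by role, with srsf2b, srsf1b, hnrnpa3, snrpa1 and sf3b1 drawn in full colour. The age of 12 months is not drawn. The line of hnrnpa3 goes from -0.34 to 0.60 and back to near 0, and that of srsf1b to 0.55 at 36 months and back, while snrpa1 and srsf2b lie below 0 at all 3 ages.

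Other genes moved between the same ages. In brain the 20 clock genes, which follow the time of day, summed to 2664 to 3263 CPM at 6 months and 3827 to 4353 CPM at 24 months. They summed to 4973 to 5558 CPM at 36 months and 3270 to 3607 CPM at 42 months. The study's methods place the sampling at noon or in the early afternoon, so as to avoid circadian effects. The 10 immediate early genes, which respond to stimulation and handling, summed to 972 to 1818 CPM at 36 months and 400 to 872 CPM at 42 months, with 7 of 10 lower at 42 months, and 11 of 18 cell division genes were lower as well (sums of 145.2 to 198 and 129 to 181 CPM). The sums of the exocrine pancreas markers ranged from 10.49 to 1199 CPM at 36 months and from 5.56 to 67.3 CPM at 42 months, and those of the intestine markers from 55.7 to 365 and from 39.3 to 56.6 CPM. With the summed cell division genes as a covariate, 26 members were called between 42 and 36 months, 4 higher and 22 lower, and the share of all genes was not counted. The part of cell division, of the clock genes, of the immediate early genes and of the gut and pancreas markers in these differences was not tested.

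At 24 months, the older of the 2 ages without a listed transgene, 10 of the 25 hnRNP genes were lower in brain and 1 was higher. Of the 61 members 1 was higher and 11 lower than at 6 months, against a background of 13.9% of all genes (6.83% higher, 7.06% lower), and the 11 were these 10 hnRNP genes and srsf2b. Of the 25 hnRNP genes 20 had a log2 fold change below 0, with a median of -0.18, whereas the medians were 0.02 for SR, -0.04 for snRNP, 0.03 for SF3 and -0.001 for all genes. For 14 members the 2 ages did not overlap (1 higher, 13 lower), against 11.5% of all genes.

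The exception was again HNRNPH3, which had 19.9, 21.3, 20.7, 20.9 and 17.4 CPM at 24 months, all above the highest library of 6 months (13.9 CPM), a log2 fold change of 0.58 (SE 0.0688, adjusted p = 8.6e-06). The lowest were HNRNPUL2 (-0.36, adjusted p = 0.0424, lost in 25 of 33 alternative settings), HNRNPAB (2 of 2) (-0.35, adjusted p = 0.00533) and hnrnpa3 (-0.34, adjusted p = 0.00445). The libraries of hnrnpa3 at 24 months had 30.6, 31.9, 30.0, 33.3 and 23.6 CPM, all below the lowest of 6 months (35.8 CPM). In brain 5 of the 18 cell division genes were lower at 24 months and none higher, with sums of 157 to 182 CPM at 6 months and 84.8 to 156 CPM at 24 months. With their sum as a covariate 3 members were called, 1 higher and 2 lower, a count for which the share of all genes was not counted. Leaving out single libraries moved the count to between 5 and 12, with 5 and 6 when replicate 4 or 3 of 6 months was left out and 7 without replicate 2 or 4 of 24 months.

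In liver, hnrpl was lower in old fish. Its libraries had 45.6, 67.8, 91.3 and 71.0 CPM at 6 months, 30.7, 26.9, 40.8, 40.0 and 38.7 CPM at 36 months, and 31.4, 16.2, 33.8, 17.3 and 27.4 CPM at 42 months. All old libraries were below the lowest young one. The mean of young liver was 68.9 ± 18.7 CPM (SD, n = 4) and that of old liver 30.3 ± 8.65 CPM (SD, n = 10), a log2 fold change of -1.21 (SE 0.225, adjusted p = 0.0316). The group of 12 months, at 37.1 ± 2.13 CPM, was near the old ages, but all 4 of its libraries held over 2000 CPM of intestine markers, and that of 24 months, at 46.5 ± 14.5 CPM, spanned both. Taken alone, 42 months passed the test (-1.45, adjusted p = 0.0461) and 36 months did not (-0.96, adjusted p = 0.16). The paralogue hnrnpl2 went from 55.5 ± 15.7 to 30.9 ± 10.52 CPM (-0.85, adjusted p = 0.14).

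**Figure D4:**
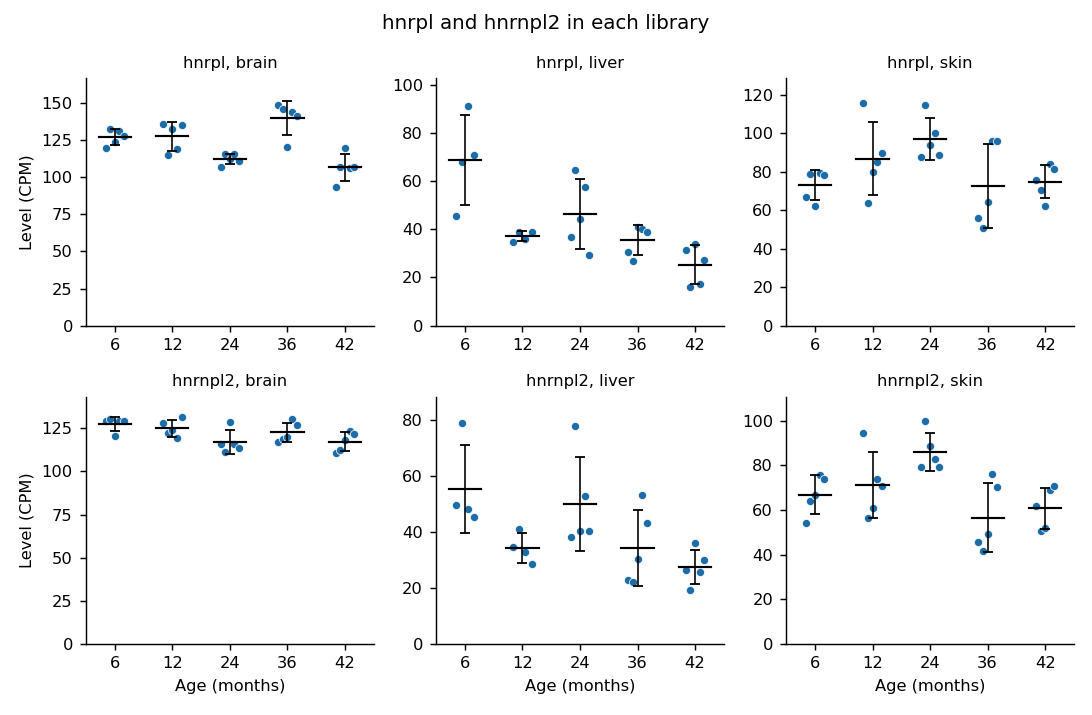
TMM-normalised CPM of hnrpl and of its paralogue hnrnpl2 in every library against age in months, by tissue, with the mean and SD of each group. In liver the points of hnrpl are highest at 6 months (45.6 to 91.3 CPM) and lowest at 42 months (16.2 to 33.8 CPM), in brain they are higher at 36 than at 42 months, and in skin the young and old ages overlap.

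In old liver hnrpl and srsf2b were the only members called, both lower, against a background of 0.190% of all 21045 genes (0.0380% higher, 0.152% lower). A further 10 had an unadjusted p under 0.05. Old and young libraries did not overlap for 5 members, all lower, against 1.24% of all genes. They were hnrpl, srsf2b, HNRNPU (2 of 2), sf3b3 and SF3B3 (1 of 2). The last 2 are copies of a gene by their symbols, and their values are uncertain where reads could be split between them. The median log2 fold change was -0.31 for the members and -0.41 for the 12 snRNP genes, none of which was above 0, while that of all genes was -0.02. The smallest p among the snRNP genes was that of snrpa1 (-0.47) and among the SF3 genes that of SF3B3 (1 of 2) (-0.81), and neither passed the test. Against 6 months, srsf2b was the member called at 36 months (background 0.0855%, 0.0190% higher and 0.0665% lower) and hnrpl the member called at 42 months (background 0.105%, 0.0333% higher and 0.0713% lower). The call of hnrpl was lost in 13 of 34 alternative settings. Of the 2 calls, 1 was left without replicate 2 of 6 months and none without replicate 3 or 4 of 6 months. Without replicate 2 or 5 of 36 months or replicate 2 or 4 of 42 months 1 was called. Without the 10 libraries rich in intestine markers 1 was called as well.

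Between 36 and 42 months none of the members was called in liver by edgeR's quasi-likelihood test, by DESeq2 or by limma voom, where 0.181% of all genes were called (0.0713% higher, 0.109% lower) and 7 members had an unadjusted p under 0.05. For 3 members, namely srsf2b, sf3a2 and sf3a3, the libraries of the 2 ages did not overlap, against 2.31% of all genes. All 3 were higher at 42 months.

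At 24 months, 3 snRNP genes were higher in liver than at 6 months, all of them genes of Sm ring proteins. The libraries of snrpe had 5.69, 9.71, 13.2 and 9.31 CPM at 6 months and 12.0, 53.2, 29.7, 46.2 and 30.9 CPM at 24 months. Only replicate 1 of 24 months lay in the range of the young libraries, and it was also the 1 library of that age with over 2000 CPM of intestine markers. The log2 fold change was 1.86 (SE 0.37, adjusted p = 0.0119). The genes snrpd2 (15.5 to 46.5 ± 22.2 CPM, 1.58, adjusted p = 0.0206) and SNRPG (10.7 to 30.4 ± 13.6 CPM, 1.51, adjusted p = 0.0456, lost in 22 of 32 alternative settings) were the other 2 that rose.

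All 12 snRNP genes and 9 of 10 SF3 genes had a log2 fold change above 0 in liver at 24 months, with medians of 0.79 and 0.45, where the median of all genes was 0.07. The SR and hnRNP medians were below 0, at -0.20 and -0.21. In all 3 members were called higher and 3 lower, against a background of 3.55% of all genes (1.68% higher, 1.88% lower), and 10 did not overlap (4 higher, 6 lower), against 6.71% of all genes. The lower ones were hnrpr, whose product in mammalian neurons binds messenger RNAs of axons (21.6 to 12.5 CPM, -0.79, adjusted p = 0.0291), hnrpdl (114 to 66.5 CPM, -0.78, adjusted p = 0.0328) and HNRNPU (2 of 2) (37.6 to 24.6 CPM, -0.62, adjusted p = 0.0377). Scaled by RLE factors the split was 2 higher and 4 lower, and by library totals alone 3 higher and none lower, a scaling that moved the median of all genes to 0.37.

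The count of 6 in liver depended on the settings and on single libraries. With only 6 and 24 months in the fit none was called, with library totals alone or no filter on low counts 3, and with DESeq2 12. The count was 2 without replicate 1 or 3 of 6 months, 1 without replicate 4 of 6 months, 2 without replicate 2 or 5 of 24 months and 3 without replicate 4 of 24 months. Of the 18 cell division genes in liver 17 were above 0 at 24 months, none of them called, with sums of 21.9 to 241 CPM at 6 months and 78.6 to 277 CPM at 24 months. With their sum as a covariate 7 members were called, 4 higher and 3 lower, again without a share of all genes to set beside them. The 14 intestine markers summed to 1009 to 20370 CPM at 6 months and 546 to 10130 CPM at 24 months.

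In skin, snRNP genes were higher at 24 than at 6 months. Of the members 11 were higher and 4 lower, against a background of 20.2% of all 22429 genes (10.7% higher, 9.49% lower). Of the 11, 8 were snRNP genes, and all 12 snRNP genes were above 0, with a median log2 fold change of 0.59, whereas the median of all genes was -0.004. For 17 members the ages did not overlap (13 higher, 4 lower), against 13.7% of all genes.

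The libraries of snrpa had 17.6, 20.9, 17.9, 24.1 and 22.0 CPM at 6 months and 27.7, 42.6, 38.8, 30.7 and 32.7 CPM at 24 months, without overlap (log2 fold change 0.75, SE 0.139, adjusted p = 9.3e-04). For snrpb, a gene of the Sm ring, they had 46.0, 54.2, 58.8, 55.3 and 61.6 CPM and then 84.8, 106.2, 96.9, 77.5 and 94.1 CPM, again without overlap (0.74, adjusted p = 7.7e-04). The gene snrpe was next (12.7 to 20.5 CPM, 0.69, adjusted p = 0.0144). The other snRNP genes that rose were snrpb2 (0.66), snrpd2 (0.63), snrpf (0.50), snrpd3l (0.49) and snrpc (0.38), joined by hnrnpul1 (0.50), sf3b5 (0.48) and hnrnpc (0.33). Skin of 12 months, from fish of another line, had 29.06, 26.15, 27.78, 23.43 and 21.96 CPM of snrpa. For snrpb it had 80.34, 64.01, 73.48, 76.3 and 84.42 CPM. Levels mostly above those of 6 months were thus not particular to 24 months for snrpa and snrpb.

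Skin at 24 months had fewer reads of 4 members. The gene sf3b1 had 646, 648, 585, 540 and 497 CPM at 6 months and 393, 387, 345, 413 and 414 CPM at 24 months, without overlap and against the direction of the snRNP genes (log2 fold change -0.58, SE 0.143, adjusted p = 0.00671). The gene hnrpr, which was also lower in liver at this age, went from 56.1 to 35.8 CPM (-0.65, adjusted p = 0.00298), srsf11 from 230 to 175 CPM (-0.40, adjusted p = 0.00544) and srsf3a from 84.3 ± 43.9 to 44.6 CPM (-0.92, adjusted p = 0.0468, lost in 21 of 34 alternative settings).

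**Figure D5:**
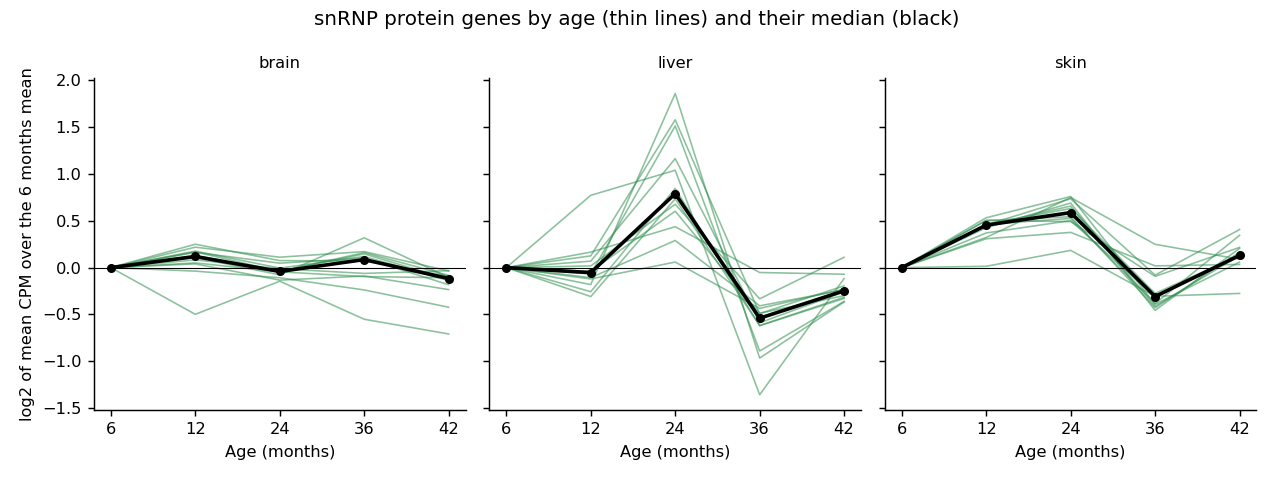
Log2 of the mean CPM over the mean at 6 months for the 12 snRNP genes by age in months in brain, liver and skin, with their median in black. In liver and in skin all 12 lines are above 0 at 24 months, while in brain the median at that age is near 0.

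Cell division genes moved with the snRNP genes of skin. Of the 18, 15 were higher at 24 months and none lower, with a median log2 fold change of 1.295 and sums of 238 to 366 CPM at 6 months and 359 to 907 CPM at 24 months, and 7 of the 10 immediate early genes were higher too. With the summed cell division genes as a covariate none of the members was called, and the log2 fold changes were 0.33 for snrpa, 0.50 for snrpb and 0.25 for snrpe. This covariate itself differed between the ages. The share of all genes called with it was not counted, so that the members have no background here. The part of cell division in these differences was not tested. Scaled by library totals alone 21 members were higher and 2 lower, with the median of all genes at 0.13. The count fell to 9 without replicate 3 of 6 months or without replicate 2 or 3 of 24 months.

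With 36 and 42 months each taken alone, none of the 12 snRNP genes was called in skin against 6 months. At 36 months 2 of the 12 were above 0, with a median of -0.31, and at 42 months 11 of the 12, with a median of 0.13 and snrpb at 0.41 (adjusted p = 0.0581). The difference of these ages from 24 months was not tested. In old skin as a whole 3 members were lower and 1 higher, against a background of 15.1% of all genes (7.81% higher, 7.32% lower). Old and young libraries overlapped for every member, whereas they did not for 2.22% of all genes. Besides srsf2b, snrpa1 was lower (24.6 ± 2.70 to 20.1 ± 2.24 CPM, log2 fold change -0.29, adjusted p = 0.0369), as it was in brain, and so was hnrnph1 (10.8 ± 0.438 to 8.91 ± 0.811 CPM, -0.28, adjusted p = 0.0166). The call of snrpa1 in skin was lost in 10 of 36 alternative settings, while that in brain held in all 35. The SR gene srsf9 was higher (18.9 to 22.3 CPM, 0.24, adjusted p = 0.0439), a call lost in 27 of 36 alternative settings. Taken by age, srsf2b was lower and HNRNPUL2 higher at 36 months, where 18.0% of all genes were called (10.1% higher, 7.90% lower), and srsf2b and hnrnph1 were lower and hnrnpul1 higher at 42 months, where 8.07% were called (4.62% higher, 3.44% lower). The gene with the smallest p in SF3 was sf3b1, at 0.19 and not called. For hnrpl, skin had 73.03 ± 7.93 CPM in young and 73.7 ± 15.7 CPM in old fish (0.01, adjusted p = 0.96). With RLE factors the split was none higher and 3 lower, and with library totals alone 2 higher and 1 lower. The count was 2 without replicate 4 or 5 of 6 months, without replicate 3 of 36 months or without replicate 2 of 42 months.

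Between 36 and 42 months, skin had 3 higher and 6 lower members against a background of 10.0% (4.98% higher, 5.05% lower), and 5 did not overlap, all lower, against 7.07% of all genes. HNRNPUL2 had 14.98, 15.1, 15.8, 13.2 and 14.1 CPM at 36 months and 10.4, 8.98, 9.71, 8.37 and 10.3 CPM at 42 months (log2 difference -0.61, SE 0.103, adjusted p = 0.00136). The level of 36 months stood above every other age of skin, since 6 months had 10.2 ± 1.19 CPM (SD, n = 5). The next were srsf1b (80.1 to 54.6 CPM, -0.55, adjusted p = 0.00443), srsf5b (-0.42), srsf5a (-0.36), hnrnpd (-0.36) and HNRNPH3 (-0.35).

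In brain these 6 genes had log2 differences of 42 to 36 months of -0.36 for HNRNPUL2, -0.51 for srsf1b, -0.32 for srsf5b, -0.16 for srsf5a, -0.29 for hnrnpd and -0.21 for HNRNPH3, all but srsf5a called. They had been picked for their fall in skin, and some fish gave both tissues at these ages. Of all genes in brain, 10.8% were called lower. The clock genes of skin summed to 2036 to 2740 CPM at 6 months, 2745 to 3560 CPM at 36 months and 1853 to 2398 CPM at 42 months, and their part was not tested. Higher at 42 months in skin were snrpb (0.49, adjusted p = 0.0241), snrpe (0.66, adjusted p = 0.0321) and snrpd3 (0.73, adjusted p = 0.0359), beside 4 of 18 cell division genes. With RLE factors the split was 6 higher and 4 lower, and with library totals alone 10 and 2. The count was 4 without replicate 1, 2 or 3 of 36 months or replicate 1 or 4 of 42 months and 14 without replicate 2 of 42 months.

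Asked for any difference among the 5 ages, 46 of 61 members were called in brain, 12 in liver and 42 in skin, where the background was 50.1%, 7.28% and 49.0% of all genes. In brain they were 11 SR, 22 hnRNP, 6 snRNP and 7 SF3 genes, with the smallest adjusted p for hnrnpa3 (3.5e-08), hnrnpa1 (1.3e-06) and srsf1b (2.3e-06). In liver they were 1 SR, 1 hnRNP, 6 snRNP and 4 SF3 genes, led by snrpe (3.4e-04), snrpd2 (0.00212) and SF3B3 (1 of 2) (0.00368). In skin they were 10 SR, 13 hnRNP, all 12 snRNP and 7 SF3 genes, led by HNRNPUL2 (1.5e-05), snrpb (2.6e-04) and hnrnph1 (4.0e-04).

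Whether the change of old against young fish differed between tissues was tested by the interaction of tissue and age. For hnrpl the change was lower in liver than in brain by 1.15 on the log2 scale (adjusted p = 0.00119) and lower than in skin (liver minus skin -1.22, adjusted p = 8.9e-04). Both calls held in all 80 alternative settings. Most of these left out 1 library, in many cases of a tissue or an age outside the comparison. The joint model took a shared spread for each gene over the libraries of all tissues. Its p-values therefore do not measure the spread of liver alone, where hnrpl had an adjusted p of 0.0316 by the same test. For srsf2b the change was lower in liver than in brain by 0.70 (adjusted p = 0.0282), although the gene fell in both. This call was lost in 7 of 80 alternative settings, fish as a replicate block among them.

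Between brain and liver 10 members were called, all with the less negative or more positive change in brain, against a background of 4.70% (2.11% with the higher and 2.58% with the lower change in brain). The difference was above 0 for 53 of 61 members, with a median of 0.31 against -0.03 for all genes. Beside hnrpl and srsf2b they were srsf1a (0.61, adjusted p = 0.00959), srsf1b (0.52, adjusted p = 0.0174), HNRNPUL2, hnrnpl2, sf3b14, sf3b3, SF3B3 (1 of 2) and srsf2a. With fish as a replicate block, which takes account of tissues from the same fish, hnrpl was the 1 member called. The count was 3 to 5 without any 1 of the 5 brain libraries of 6 months, without replicate 1 of 36 months or replicate 2 of 42 months in liver, and 6 without replicate 2 or 4 of 6 months in liver or replicate 5 of 36 months in brain.

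Between liver and skin the members called were hnrpl and HNRNPUL2 (-0.70, adjusted p = 0.036), against a background of 2.93%. With fish as a replicate block the count was again 2. It was 1 without replicate 4 of 6 months in liver or replicate 2 or 5 of 6 months in skin, and 4 without replicate 3 of 42 months in liver. Between brain and skin none was called by edgeR's quasi-likelihood test, DESeq2 or limma voom, with 5 members at an unadjusted p under 0.05 and a background of 0.931%.

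The rest of the splicing machinery was described by 4 further lists: 87 genes of the core spliceosome, 70 splicing regulators outside the SR and hnRNP families, 14 kinases and partners of SR proteins, and 17 genes of snRNP assembly. Their counts are to be read against the share of all genes called. In brain between 36 and 42 months, where that share was 22.8%, 18 core genes were lower and 7 higher, with a median of -0.08, among them ppih (-0.89), a cyclophilin of the spliceosome, and the RNA helicase gene ddx5 in the other direction (0.74). Of the assembly genes 5 were lower and none higher (median -0.26), including smn1 (-0.46), the gene whose human counterpart is lost in spinal muscular atrophy. The regulators were split, with 12 lower and 11 higher: tra2b, a partner of SR proteins, was lower (-0.40), and fus, a gene linked to motor neuron disease in humans, was higher (0.65).

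In brain at 24 against 6 months, with 13.9% of all genes called, the core list had 4 higher and 9 lower and the regulators 3 higher and 8 lower, with fus at -0.65 and tra2b at 0.46. In old against young brain, with 19.6% of all genes called, the core list had 9 higher and 2 lower and the regulators 6 higher and 10 lower, with fus at -0.38 and tra2b at 0.32. Both of these comparisons share the libraries of 6 months. In both, tra2b lay above and fus below the level of 6 months.

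In skin at 24 months, with 20.2% of all genes called, 15 of 87 core genes were higher and 4 lower (median 0.11), a share near that of all genes, and 6 assembly genes were higher and none lower (median 0.41), among them WDR77 (0.96) and smn1 (0.44). Of the SR kinase list 5 were lower and none higher, namely clk4a (-0.79), clk4b, clk2a, clk2b and the nuclear import receptor gene tnpo3 (-0.37). In liver at 24 months, with 3.55% of all genes called, 11 core genes were higher and 1 lower (median 0.27), with prpf31 at 2.51 and eftud2 at 2.16, while in old liver, with 0.190% called, none of the core genes, regulators or kinases was called and 1 assembly gene, gemin4, was lower (-1.38). In old skin, with 15.1% called, the core list had 4 higher and 2 lower and the regulators 2 higher and 5 lower.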

How the data were processed

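RNA was sequenced by the authors as single-end reads on an Illumina instrument from TruSeq libraries, which do not mark strand. The submitters' processing notes in the labels name CASAVA 1.8.0 for these samples, while the study's methods list several releases of it. Per the labels and these methods, reads were mapped with TopHat2 2.0.6 to genome build Zv9, and the count table holds raw whole-number counts per gene made by the authors, with HTSeq named in the submitters' processing notes. The deposited RPKM table was computed by the authors from these counts, exon lengths and library sizes, and was used here only for levels between genes. Counting without strand cannot separate genes that overlap, and gene positions were not used here. The values of hnrnpa0b and hnrnpa0l are therefore uncertain if these genes overlap. Those of sf3b3 and SF3B3 (1 of 2), copies of a gene by their symbols, are uncertain where reads could be split between them.

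Members and lists were chosen with earlier results of these data known. Counts were tested with edgeR 4.0.16 in R 4.3.3 (quasi-likelihood test, filterByExpr, TMM factors, robust fit, two-sided, Benjamini-Hochberg adjustment over all genes tested in a comparison, threshold 0.05), in 1 model of 5 ages for each tissue and in 1 joint model of 73 libraries and 15 groups of tissue and age. CPM values were scaled by the TMM factors of the tissue. Old was the mean of the coefficients of 36 and 42 months. "Differs between tissues" is the interaction of tissue with old against young. The depth of 29006611 to 58166358 counts per library left all members above the filter, and no pair of libraries held identical values.

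The genes named are srsf2b and hnrpl. To these were added, for old against young, the 5 highest and 5 lowest called members whose mean log2 CPM reached 1, and the smallest p of each role. For 24 against 6 months the 3 highest and 3 lowest called were named, for any age the 3 smallest p, for tissue pairs the 4 highest and 4 lowest and for interactions the 4 smallest p. Others were named after their values had been seen.

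Alternatives were DESeq2 1.42.0, voom in limma 3.58.1, RLE factors, library totals alone, the RPKM filter of the study or none, fewer ages, covariates, 1 library left out and fish as a block. The study applied its RPKM filter over the samples of an organism, and here it was applied within each tissue. Libraries of different tissues of 1 fish, as the labels name them, deviated together more than others of the same age (median correlation 0.123 over 43 pairs and -0.0205 over 312 pairs). The code was tested on simulated data. A pair of libraries (2) whose labels give conflicting tissues was in no group. The files paired gene IDs with symbols, and 51 of 61 IDs were also found in the reference table of gene names. Sequences are not shown.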

Additional observations from a re-analysis of the deposited data

Results flagged for a closer look

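For the named genes, 1 library stood apart from the others of its tissue and age in 6 of the groups checked. The critical value used (Dixon's, at 95%) is set so that chance alone passes it in about 1 of 20 independent groups. The groups checked here share libraries. As a share of all groups checked, these 6 were close to that rate, so that the libraries listed may stand apart by chance alone. In brain at 36 months hnrpl had 120.5 CPM in replicate 3 (the others 141 to 148.8 CPM) and sf3b4 had 11.89 CPM in the same replicate (the others 14.75 to 15.87 CPM). At the same age snrpa1 had 32.34 CPM in replicate 4 (the others 25.75 to 27.22 CPM) and srsf1a had 137.4 CPM in replicate 5 (the others 154.6 to 161.2 CPM). In brain at 42 months srsf6b had 148.8 CPM in replicate 1 (the others 119.2 to 123.8 CPM), and in liver at 24 months hnrpdl had 86.77 CPM in replicate 1 (the others 57.34 to 62.83 CPM), which was also the library of that age rich in intestine markers.

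The change of old against young fish differed between brain and liver by the interaction test (edgeR's quasi-likelihood test with Benjamini-Hochberg adjustment) for 10 members, each with the higher change in brain. The differences on the log2 scale were 1.147 for hnrpl, 0.6078 for srsf1a, 0.5173 for srsf1b, 0.7042 for srsf2b, 0.6774 for HNRNPUL2 (adjusted p = 0.0342), 0.772 for hnrnpl2 (adjusted p = 0.0378), 0.487 for sf3b14 (adjusted p = 0.0399), 0.9373 for sf3b3 (adjusted p = 0.0428), 0.8931 for SF3B3 (1 of 2) (adjusted p = 0.0437) and 0.5758 for srsf2a (adjusted p = 0.0465). Between liver and skin the change of hnrpl differed by -1.215 and that of HNRNPUL2 by -0.7036.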

How the results depend on the processing

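Over all alternatives, 582 of 659 counts of members called stayed within 1.5 times the count reported, 66 were lower and 11 higher, and of 2198 values of named genes 1959 kept their direction and side of the threshold, 219 lost the call, 1 gained it and 19 changed sign. Old against young gave 7 members in brain with 42 months alone, in liver 0 with library totals alone, with limma voom and with only 6, 36 and 42 months in the fit, 1 with no filter, without intestine-rich libraries and with 36 or 42 months alone and 6 with DESeq2, and in skin 2 with no filter, with only 6, 36 and 42 months and with 36 months alone. For 24 against 6 months the cell division covariate gave 3 in brain and 0 in skin, where library totals gave 23, and liver had 3 with library totals or no filter, 12 with DESeq2 and 0 with only 6 and 24 months. Skin at 42 against 36 months had 15 with DESeq2, 4 with only 6, 36 and 42 months, 14 with the muscle covariate and 3 with that of cell division, and any age in liver had 23 with DESeq2. The interaction of brain and liver gave 1 with fish as a replicate block, 18 without intestine-rich libraries, 4 with limma voom and 6 with no filter or library totals, and that of liver and skin 15, 1, 1 and 5 without intestine-rich libraries, with limma voom, with no filter and with library totals. The block ended the calls of 4 of 30 named genes tested with it. With 1 library left out, counts were 13 to 20 (old, brain), 5 to 12 (24 months, brain), 0 to 2 (old, liver), 1 to 9 (24 months, liver), 2 to 5 (old, skin), 9 to 16 (24 months, skin), 4 to 14 (42 against 36 months, skin), 3 to 12 (brain and liver) and 1 to 4 (liver and skin). Changes of sign were those of hnrnpa3 in brain with 42 months alone (-0.00175), of hnrpl in brain with 36 months alone (0.14) and of the change of hnrpl, old vs young, skin, whose 0.01 became -0.00885 with limma voom, -0.18 with the muscle covariate, -0.0781 with that of cell division, -0.00853 with 36 months alone and from -0.0674 to 0.0432 with 1 library left out. Library totals moved the median of all genes by over 0.1 in the log2 changes of liver and skin. Leaving out libraries was not run for the tissue pairs, and for the interactions it held the dispersion trend of the full model. The libraries left out include those of ages or tissues outside a comparison, which enter it only through the spread and the scaling. The share of all genes called was not counted under the alternatives. The causes were not tested.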
